A study of Solanum tuberosum with 136 samples.

Results

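The 200 genes described here lost abundance during storage in the control buds of potato tubers and stood higher in buds under ethylene at week 15. They were chosen by their level in bud libraries, among the 32878 genes of the gene table. The level is CPM, the count of a gene scaled by the total of its library, averaged over the 4 libraries of a group and written as log2(mean CPM + 1). A gene had to lie at least 1 log2 unit below its week 0 level in the control buds of each of weeks 15, 16, 17 and 18, and at least 0.8 log2 units higher in ethylene buds than in control buds at week 15. The first condition was met by 917 genes and both by 419, and the 200 with the largest week 15 difference were kept. Their week 15 difference had a median of 1.85, with 3.76 for the first gene and 1.402 for the last, and the gene next in rank, Soltu.DM.09G001310, had 1.397. These values chose the genes and carry no test.

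Ethylene is a gaseous plant hormone that is made in plant tissues and is also supplied to potato stores, where it holds back the growth of sprouts. It binds to receptors in the membranes of the endoplasmic reticulum, and a kinase that otherwise blocks the pathway is then no longer active. Transcription factors of the EIN3 family then act on the ethylene-responsive genes. The bud of a potato tuber is a meristem that is dormant after harvest and later resumes growth as a sprout, while the flesh is the storage tissue that holds starch and storage proteins. The files do not pair the gene IDs with names, and none of the IDs occurs in the table of gene names at hand, so the genes are given by their IDs and without roles.

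Tubers of the cultivar Russet Burbank were stored under 10 ppm ethylene or as controls without it, and RNA of the primary bud and of the flesh was sequenced. Ethylene buds and ethylene flesh were sampled at weeks 3, 6, 9, 12 and 15. For the samples of weeks 16, 17 and 18 the ethylene had ended at week 15, so that these buds and flesh had spent 1, 2 or 3 weeks in air. Control buds and control flesh were sampled at weeks 0, 3, 6, 9, 12, 15, 16, 17 and 18. Each of the 34 groups has 4 libraries, which makes 68 of bud and 68 of flesh, and the labels do not say whether these came from separate tubers, so p-values measure the spread between these libraries, which may be technical. Bud libraries held 24413176 to 50914087 counts and flesh libraries 16632791 to 49972624. One bud library, replicate 1 after 2 weeks in air, stood apart from its group, with values below. The buds are bulk tissue, in which fewer cells of a type and less RNA per cell cannot be told apart. Markers of bud and flesh could not be checked without gene names.

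A listed 0 in these tables need not mean the absence of reads. The gene table lists 0 for 1684573 of its values, while only 5 are 1 and 859 are 2, against 16114 that are 10. Low values thus appear to have been listed as 0 below a level that differs between genes. Whether a given 0 had reads cannot be told. The smallest count above 0 had a median of 18 over the 200 genes. At least 1 bud library was listed at 0 for 40 of the genes, and at least 1 library of either tissue for 58.5% of them. Where a group is listed at 0 in all libraries, the fold below is a lower bound that puts the smallest count above 0 of that gene into each of the 4 libraries.

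At week 0 the 200 genes had a median level of 38.5 CPM in the bud, with a range of 2.02 to 1357 CPM, and together they took 1.76% ± 0.161 of the counts of a library (SD, n = 4). By week 15 they took 1.13% ± 0.152 in ethylene buds and 0.26% ± 0.0937 in control buds (SD, n = 4 each). Of the 200, Soltu.DM.09G000540 took the most counts at week 0, with 1340, 1377, 1363 and 1349 CPM in the 4 libraries, followed by Soltu.DM.01G051570, with 1040, 930, 752 and 838 CPM. The largest week 15 difference was that of Soltu.DM.02G034250, which had 25.7, 46.2, 30.1 and 71.4 CPM in ethylene buds, against 2.45, 2.25, 0.672 and 3.73 CPM in control buds. Next was Soltu.DM.06G013150, with 100.4, 143.7, 104.1 and 94.9 CPM in ethylene buds, against 6.4, 6.01, 6.29 and 12.5 CPM in control buds. In both genes every ethylene library lay above every control library, as in 190 of the 200 genes, a count that the choice of the genes fixes in large part. At the lower end of the list Soltu.DM.03G028360 had 23.4, 28.5, 28.1 and 39.9 CPM in ethylene buds, against 10.2, 8.22, 11.2 and 13.3 CPM in control buds.

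The course of the genes goes against a description as kept high by ethylene. Relative to week 0, the median gene was already 2.35 log2 units lower in ethylene buds at week 3 and 1.42 lower in control buds at week 3. The level was under 50% of week 0 for 169 genes in ethylene buds and for 138 in control buds at that week. In ethylene buds the median of weeks 6, 9, 12 and 15 then stood at -0.33, -0.84, -0.26 and -0.44. In control buds it stood at -1.76, -2.00, -1.27 and -2.37 at the same weeks. The median was thus low at week 3 in both arms, and it stood within 1 log2 unit of week 0 again in ethylene buds and not in control buds. Because week 0 and the later control weeks entered the choice of the genes, these distances from week 0 are a description.

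**Figure D1:**
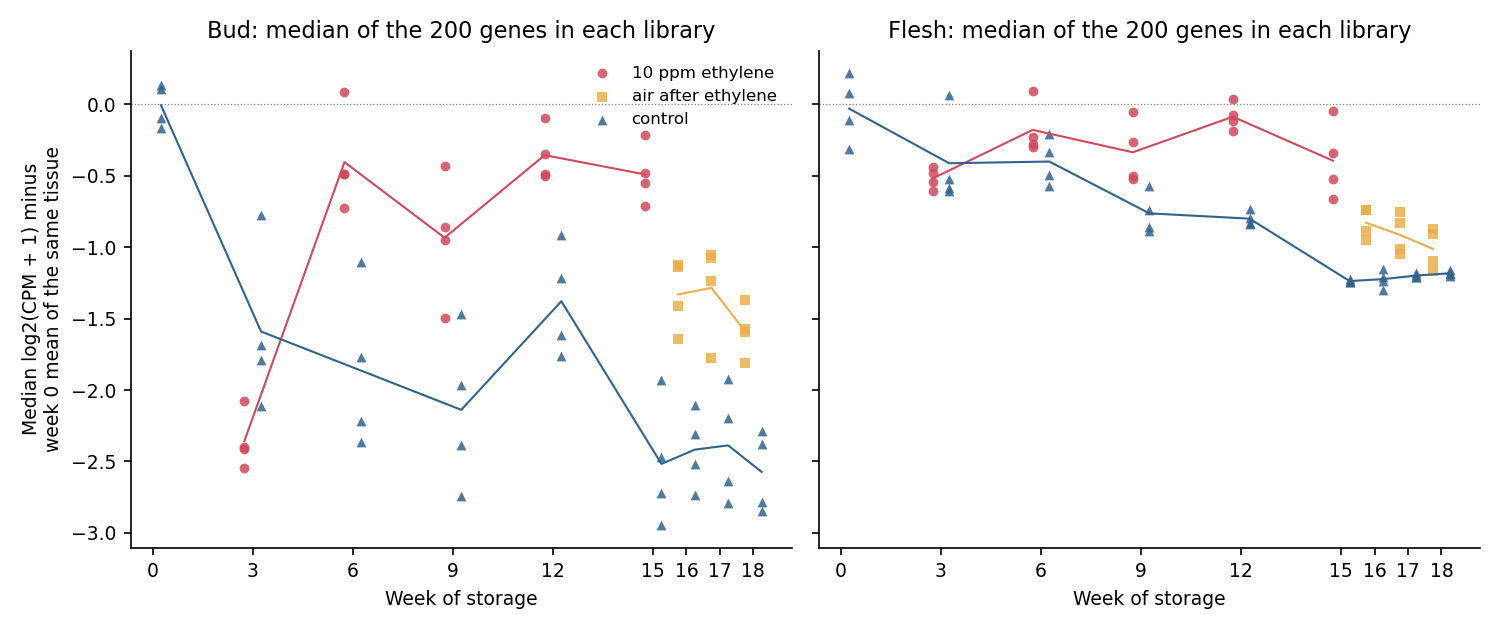
Median over the 200 genes of log2(CPM + 1) minus the week 0 mean of the same tissue, 1 point per library, for bud (left) and flesh (right) by week of storage; circles are 10 ppm ethylene, squares air after ethylene, triangles controls, and lines join the group means. In bud the 4 ethylene libraries lie between -2.54 and -2.07 at week 3 and between -0.73 and 0.08 at week 6, while the control libraries of week 6 lie between -2.36 and -1.10.

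**Figure D2:**
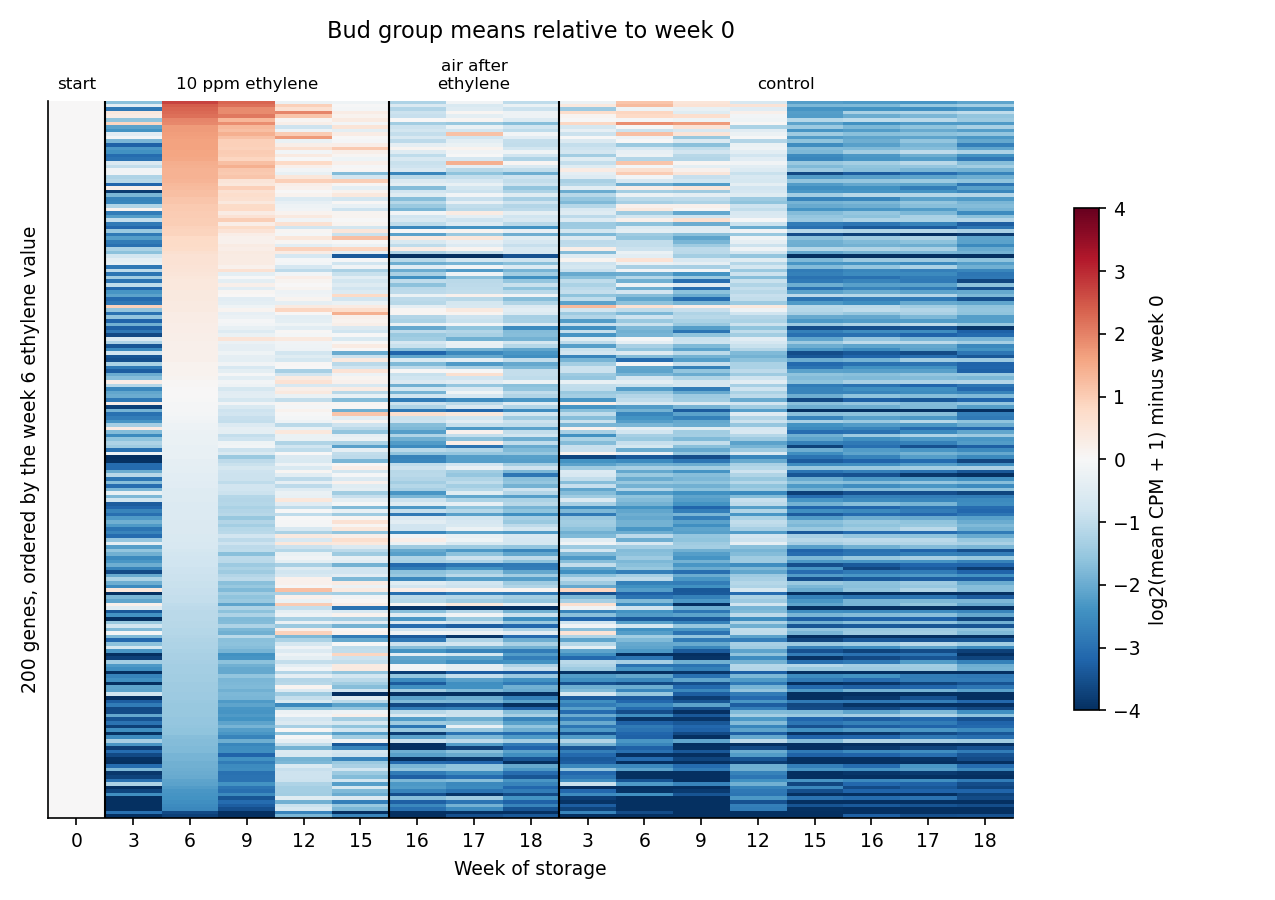
Bud group means of the 200 genes (rows, ordered by the ethylene value of week 6) as log2(mean CPM + 1) minus week 0, in columns for week 0, the ethylene weeks, the weeks in air after ethylene and the control weeks; red is above and blue below week 0, and the colour scale ends at -4 and 4. The ethylene column of week 3 is blue for most rows, the ethylene columns of weeks 6 to 15 hold red, pale and blue rows, with 61 genes under 50% of week 0 at week 6 and 92 at week 9, and the control columns of weeks 15 to 18 are blue throughout, as the choice of the genes requires.

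The effect of ethylene in the bud was tested at weeks 3, 6, 9 and 12, whose libraries played no part in the choice of the genes. All 200 genes passed the filter on low counts in bud, and counts below are of genes with an adjusted p under 0.05 in edgeR's quasi-likelihood test over all 24328 bud genes tested. At week 3 the genes leaned towards lower levels under ethylene: 59 were lower and 2 higher, where 2.96% of all genes tested were lower and 2.74% higher, and the median log2 fold change was -0.80. The fitted change was negative for 177 genes. Without replicate 4 of the week 3 control buds 5 genes were lower, and without ethylene replicate 1, 2 or 3 the counts were 17, 24 and 32. In that control library the median gene stood at -0.77 relative to week 0, against -2.12 to -1.69 in the other 3.

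Among called genes with at least 5 CPM in the higher group, the most negative week 3 changes were those of Soltu.DM.04G022150 and Soltu.DM.07G022220. Soltu.DM.04G022150 had 1.02, 0.589, 1.22 and 3.09 CPM in ethylene buds, against 5.41, 3.09, 7.7 and 27.8 CPM in control buds, a log2 fold change of -2.94 ± 0.88 (SE; edgeR adjusted p = 0.0321). Soltu.DM.07G022220 had 0.235, 0.196, 1.08 and 2.2 CPM in ethylene buds, against 3.79, 1.37, 4.14 and 16.7 CPM in control buds, a log2 fold change of -2.89 ± 0.72 (edgeR adjusted p = 0.00892). In both genes the highest ethylene library reached or passed the lowest control library, the control library of replicate 4 was far above the other 3, and without it the adjusted p was 0.305 and 0.201 in edgeR's test. The 2 genes that were higher at week 3 moved less. Soltu.DM.01G040130 had 203.8, 126.5, 125.6 and 146.8 CPM in ethylene buds, against 87.9, 90.3, 82.3 and 89.2 CPM in control buds, a 1.75-fold difference whose call ended in 7 of the 8 fits that left out 1 library. Soltu.DM.09G020160 had 82.2, 63.1, 67.7 and 77.6 CPM, against 46.8, 47.7, 50.2 and 52.7 CPM in control buds, a 1.49-fold difference (edgeR adjusted p = 0.01) that was lost only without ethylene replicate 1. In both genes all 4 ethylene libraries lay above the 4 control libraries.

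From week 6 the direction was the other one. At week 6 158 of the 200 genes were higher under ethylene and 0 lower, where 6.36% of all genes tested were higher and 5.5% lower; the median log2 fold change was 1.69, which is a 3.23-fold difference. At week 9 143 genes were higher and 0 lower, with 5.26% and 5.79% of all genes, and the median was 1.39. At week 12 52% of the 200 genes were higher and 0 lower, with 4.43% and 5.52% of all genes, and the median was 1.15. DESeq2 likewise called 0 genes lower at these 3 weeks, and at an unadjusted p under 0.05 in edgeR's test the lower genes numbered 1, 0 and 0. The fitted change was positive for 197, 198 and 197 genes at weeks 6, 9 and 12. The week 9 count was 85 without control replicate 1, 90 without control replicate 2 and 77 without ethylene replicate 4. Over the 3 weeks 71 genes were higher in each, 77 in 2, 38 in 1 and 14 in none. The shares of all genes tested that were higher in as many of these weeks were not computed.

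**Figure D3:**
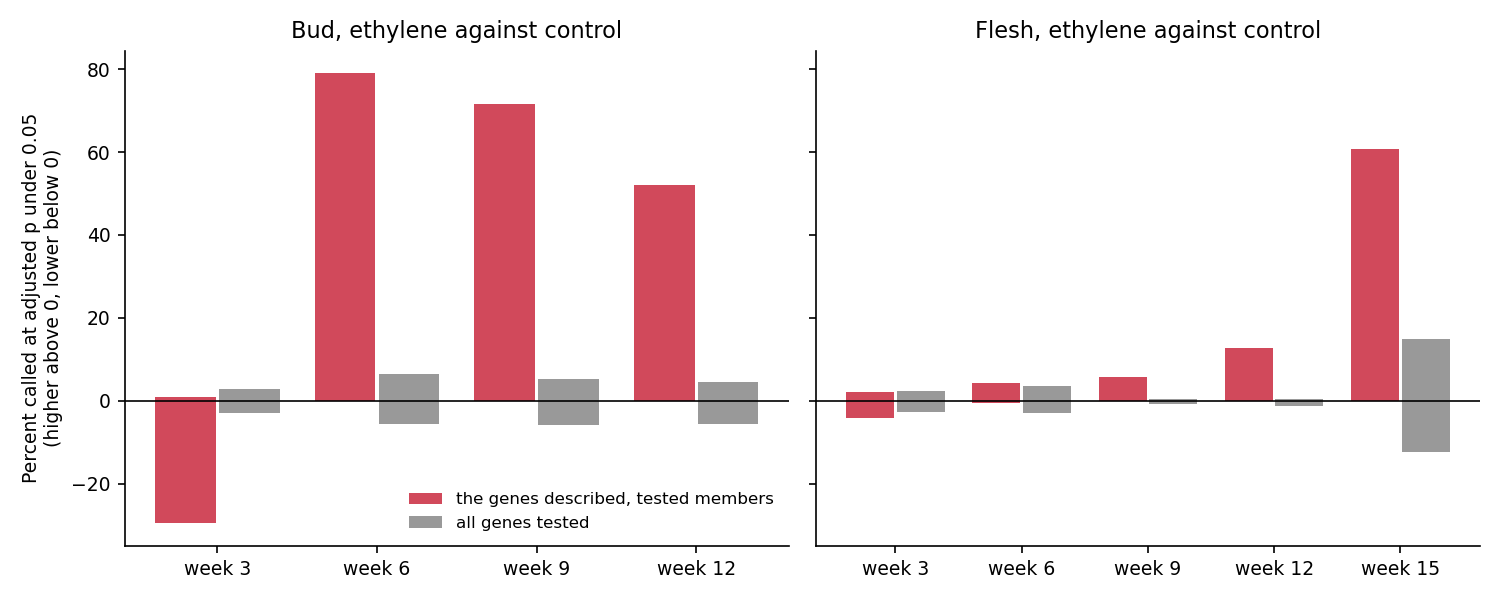
Percent of genes called at an adjusted p under 0.05 as higher (above 0) or lower (below 0) under ethylene than in controls, for the tested members of the 200 genes (red) and all genes tested (grey), in bud (left) and flesh (right). In bud the members' bar points down at week 3 (59 of 200 lower) and up at weeks 6, 9 and 12 (158, 143 and 52% of 200 higher), while in flesh it stays short until week 15 (60.6% of the 188 tested). The grey bar for higher genes in flesh also grows at week 15, from 0.497% at week 12 to 15%.

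Soltu.DM.10G010160 had the largest week 6 change among genes of at least 5 CPM, with 2.11, 7.57, 10.2 and 27.3 CPM in ethylene buds, against 0.501, 0, 0.53 and 1 CPM in control buds. Its log2 fold change was 4.62 ± 0.87 (SE; edgeR adjusted p = 0.000147), and every ethylene library lay above the control libraries. Soltu.DM.03G020780, the next, had 29.7, 50, 77.4 and 206 CPM in ethylene buds, against 1.26, 1.67, 3.44 and 23.2 CPM in control buds, a 13.1-fold difference (edgeR adjusted p = 0.00598). Replicate 4 was the highest library in both arms of this gene, and the arms did not overlap. At week 9 Soltu.DM.09G004900 had 14.8, 9.51, 12.8 and 16 CPM in ethylene buds, against 1.14, 0.983, 1.97 and 1.97 CPM in control buds, an 8.65-fold difference (edgeR adjusted p = 1.55e-05). Soltu.DM.12G002200 had 3.32, 5.58, 3.87 and 7.28 CPM in ethylene buds at week 9, against 0, 0, 1 and 1.29 CPM in control buds, with 2 control libraries listed at 0. The largest changes of week 12 were in other genes. At week 12 Soltu.DM.08G026500 had 96.1, 53.8, 56.8 and 69.2 CPM in ethylene buds, against 5.64, 3.28, 8.02 and 8.88 CPM in control buds, a 10.6-fold difference (edgeR adjusted p = 8.54e-06). Soltu.DM.05G003140 had 2.89, 5.4, 9.2 and 12.4 CPM in ethylene buds at week 12, against 0.94, 0.481, 0.318 and 0.781 CPM in control buds, an 11.6-fold difference (edgeR adjusted p = 0.000522). In these 4 genes the lowest ethylene library lay above the highest control library.

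Of the 59 genes that were lower under ethylene at week 3, 53 were higher at week 6, which is 89.8% of the 59 and 33.5% of the 158. At week 12, 19 were higher, which is 32.2% and 18.3% of the lists. Of all 200 genes, 29.5% were lower at week 3, 79% higher at week 6 and 52% higher at week 12. The 89.8% lies above the share of its week and the 32.2% below, and a link between the lists was not tested. For each of the 200 genes the reversal was tested as the difference between the ethylene effects of 2 weeks. Between week 12 and week 3 the effect was larger at week 12 for 143 genes and smaller for 0, where 3.3% and 2.89% of all genes tested were called, and the median difference was 2.13 log2 units. By DESeq2, and at an unadjusted p under 0.05 in edgeR's test, the number with a smaller effect was 0 too, here and for the next comparison. Between week 6 and week 3, a comparison added after the data were seen, it was larger at week 6 for 150 genes and smaller for 0, with 5.11% and 3% of all genes, and the median was 2.48. Both rest on the same week 3 libraries, and the genes called in both are 87.4% of the 143 and 83.3% of the 150. Without replicate 4 of the week 3 control buds the week 12 count was 75 with a median of 1.66, and the share called for week 6 lay within 65.5% to 80.5% of the 200 genes when any 1 library was left out. Soltu.DM.03G020780 is an example: its ethylene buds had 4.44, 3.36, 5.12 and 8.68 CPM at week 3, where the control buds had 19.4, 5.36, 13.5 and 121.1 CPM, and its difference of the week 6 and week 3 effects was 6.61 ± 1.36 log2 units (SE; edgeR adjusted p = 0.000606). This gene is not one of the 59, with an edgeR adjusted p of 0.0582 at week 3 and 0.374 at week 12. The 121.1 CPM is that of control replicate 4.

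**Figure D4:**
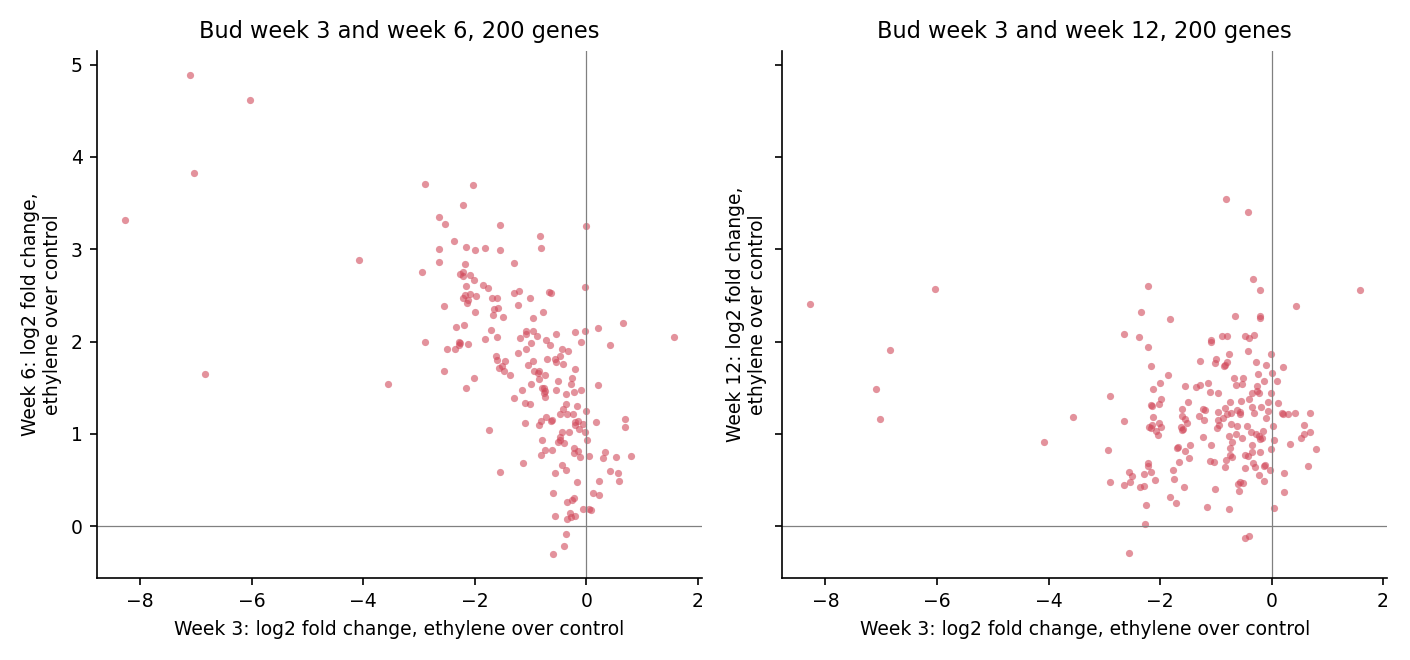
Log2 fold change of ethylene over control buds at week 3 (x axis) and at week 6 (left) or week 12 (right, y axis) for the 200 genes, 1 point each; the 2 weeks share no library. Most points lie left of 0 and above 0, and the 7 points left of -3 are genes with at least 1 ethylene library of week 3 listed at 0, whose fitted values depend on that 0.

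Within the ethylene arm, 163 genes were higher at week 12 than at week 3 and 4 were lower, where 16.5% and 10.9% of all genes were called, and the median log2 fold change was 2.26. At week 6 against week 3, added after the data were seen, 173 were higher and 5 lower (2 or 3 lower without ethylene week 3 replicate 1, 2 or 4 or week 6 replicate 2 or 3), with 25.2% and 22.6% of all genes and a median of 2.37, and 154 genes were higher at both weeks, 94.5% of the 163 and 89% of the 173. Both lists rest on the same ethylene libraries of week 3. Of all 200 genes, 86.5% were higher at week 6 and 81.5% at week 12, so no link is read from the overlap. Soltu.DM.02G027740 had 18.8, 16.1, 12.6 and 16.2 CPM at week 12 and was listed at 0 in the 4 ethylene libraries of week 3, which is at least 22.3-fold higher. Soltu.DM.10G010160 had 10.2, 11.7, 7.75 and 9.14 CPM at week 12 and was likewise listed at 0 at week 3, at least 22.9-fold higher; its week 6 level was at least 28.2-fold higher. Soltu.DM.09G024590 had 64.3, 80.9, 82.3 and 122.7 CPM at week 6, against 1.1, 0.609, 1.05 and 2.85 CPM at week 3, a log2 fold change of 6.14 ± 0.68 (SE; edgeR adjusted p = 3.48e-11). Few genes ran the other way. Soltu.DM.06G010530 fell to 31.4, 42.7, 52.3 and 54.4 CPM at week 12, against 77.4, 76.8, 73.6 and 73.8 CPM at week 3 (log2 fold change -0.80 ± 0.15, edgeR adjusted p = 1.92e-05). Soltu.DM.03G012130 fell to 47.3, 52.8, 65.1 and 69.1 CPM at week 12, against 90.7, 101.9, 92.9 and 82.2 CPM at week 3 (log2 fold change -0.71 ± 0.13, edgeR adjusted p = 2.29e-05).

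The control arm showed no shared direction over the same weeks. At week 12 against week 3, 18 genes were higher and 23 lower, where 16.9% and 9.76% of all genes were called, and the median log2 fold change was 0.14. The count of higher genes was 42 without replicate 4 of the week 3 control buds and 4 to 9 without week 12 replicate 3 or 4 or week 3 replicate 1, 2 or 3, and the median was below 0 without week 12 replicate 4 or week 3 replicate 2. At week 6 against week 3, added after the data were seen, 28 genes were higher and 46 lower, with 26.2% and 22.8% of all genes and a median of -0.14. Without replicate 4 of the week 3 control buds 47 were higher and 22 lower, with a median of 0.28. Without week 6 control replicate 1 or 2 the lower genes numbered 28 and 29, and without replicate 4 the higher ones 18.

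Among called genes with at least 5 CPM in the higher group, those with the largest changes within the control arm from week 3 to week 6 lie next to each other by ID. Soltu.DM.12G002180 fell to 1.74, 1.38, 2.5 and 2.87 CPM in control buds of week 6, against 17.8, 16.4, 22.6 and 44 CPM at week 3 (log2 fold change -3.55 ± 0.54, edgeR adjusted p = 1.32e-07). Soltu.DM.12G002190 had 0, 0.918, 1.04 and 0.861 CPM at week 6, against 7.3, 6.87, 9.74 and 18 CPM at week 3, a 14.9-fold fall with 1 library listed at 0. The neighbours Soltu.DM.09G001300 and Soltu.DM.09G001290 rose instead. Soltu.DM.09G001300 had 120.4, 139.6, 139.6 and 152.4 CPM at week 6, against 30.1, 32.8, 27.1 and 39.4 CPM at week 3, a 4.32-fold difference (edgeR adjusted p = 1.06e-06). Soltu.DM.09G001290 had 8.76, 10.4, 9.39 and 10.7 CPM at week 6, against 2.21, 2.2, 0 and 2.04 CPM at week 3. Between weeks 12 and 3 single genes of the control arm moved in either direction. Soltu.DM.05G022670 had 5.33, 5.21, 4.89 and 6.85 CPM at week 12, against 39.4, 35.8, 34.2 and 34.5 CPM at week 3 (log2 fold change -2.71 ± 0.52, edgeR adjusted p = 7.27e-05). Soltu.DM.12G012210 rose to 5.19, 4.5, 8.31 and 8.63 CPM at week 12, against 2.17, 2.04, 1.69 and 2.65 CPM at week 3, a 3.08-fold difference (edgeR adjusted p = 0.000412).

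Levels under ethylene passed those of week 0 in some genes. In 42 genes all 4 ethylene libraries of week 6 lay above all 4 libraries of week 0, and for weeks 9, 12 and 15 this held for 23, 12 and 7 genes. The week 6 ethylene mean was 1 log2 unit or more above week 0 in 33 genes. Shares of all bud genes that pass week 0 in these ways were not computed. Week 0 also entered the choice of the genes, so these counts are a description. Soltu.DM.01G000790 had 81.4, 80.8, 63.2 and 91.2 CPM in ethylene buds at week 6, against 14.5, 20.4, 14.8 and 13.2 CPM at week 0, and its control buds of week 6 had 24.9, 26.6, 30.4 and 36 CPM. Soltu.DM.05G012130 had 150, 154, 143 and 169 CPM in ethylene buds at week 6, against 30, 38.8, 30.9 and 31.4 CPM at week 0, with 42.3, 55.4, 55 and 76.9 CPM in the control buds of week 6. Neither gene shared the low week 3: Soltu.DM.01G000790 had 23.7, 17.3, 20.9 and 23.3 CPM and Soltu.DM.05G012130 49.3, 34.5, 39.1 and 37.8 CPM in ethylene buds. Over weeks 6, 9, 12 and 15 the ethylene level was highest at week 6 in 88 genes, at week 9 in 6, at week 12 in 65 and at week 15 in 41. Week 15 is the week whose ethylene level entered the choice.

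**Figure D5:**
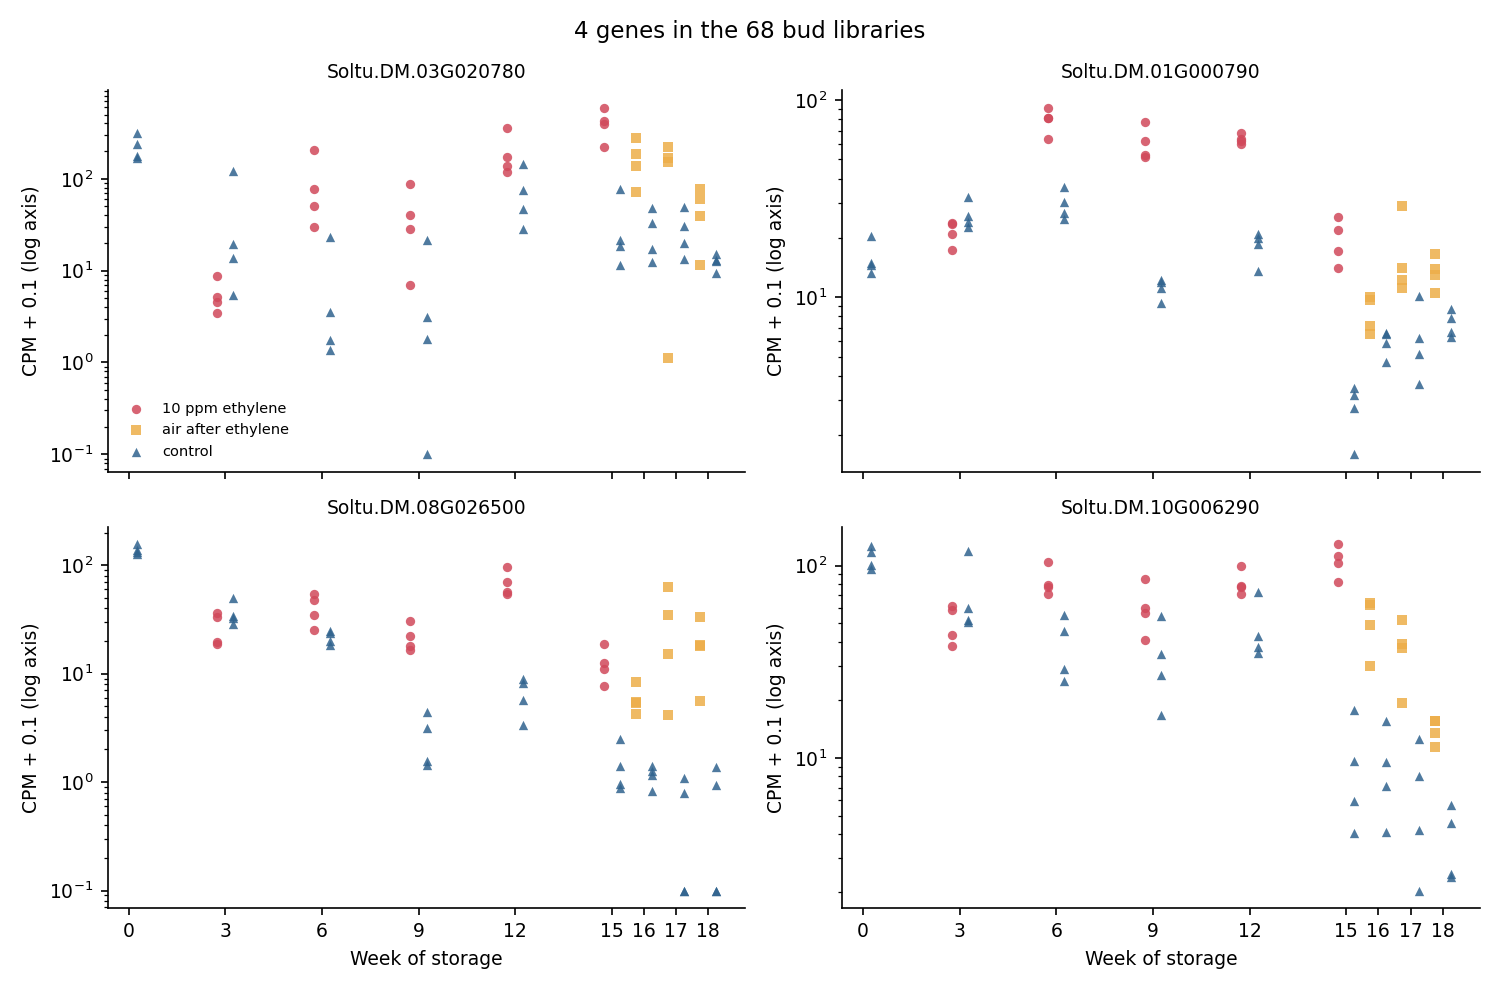
CPM + 0.1 (log axis) of 4 of the genes in each of the 68 bud libraries by week of storage; circles are 10 ppm ethylene, squares air after ethylene, triangles controls, and points on the 0.1 line are libraries listed at 0. Soltu.DM.03G020780 and Soltu.DM.10G006290 stood at 222 to 592 CPM and 81.8 to 129.3 CPM in ethylene buds of week 15 and were lower in air, while Soltu.DM.01G000790 was highest at ethylene week 6.

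After the tubers returned to air the genes stood between the ethylene and the control level. Relative to week 0 the median gene stood at -1.26, -1.08 and -1.54 in buds after 1, 2 and 3 weeks in air, against -2.39, -2.28 and -2.54 in control buds of weeks 16, 17 and 18. All 200 genes were lower after 1 week in air than in ethylene buds of week 15, by a median of 0.90 log2 units, and 192 were lower after 3 weeks, by a median of 1.04. The ethylene level of week 15 and these control weeks entered the choice of the genes, so the comparisons with them are a description. On the fit across all bud genes 62, 141 and 62 genes were higher than control at weeks 16, 17 and 18, where 0.826%, 11% and 1.83% of all genes were higher and 0.937%, 3.13% and 0.974% lower; the rule required these control libraries to be low, so nothing is read from the counts. Fitted on the 8 libraries compared alone, 67%, 0% and 54.5% of the 200 genes were higher, and the shares of all genes in those fits are not given. The week 16 count was 31 without air replicate 4, 28 without control replicate 1 and 33 without control replicate 2. The week 18 count was 41 without air replicate 1, 40 without control replicate 1 and 33 without control replicate 2. The bud library of replicate 1 after 2 weeks in air stood apart from its group (median r of 0.879 with the other 3, across genes, where the lowest other library of the series had 0.976). Without it 53% of the 200 genes were higher than control at week 17.

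Between the first and the third week in air, a comparison of libraries that took no part in the choice, 9 genes were higher and 8 lower after 3 weeks, where 6.56% and 3.42% of all genes were called, and the median log2 fold change was -0.20. Fitted on the 8 libraries compared alone, 15 were higher and 39 lower, and the shares of all genes in that fit are not given. The counts also moved with single libraries: 2 to 5 higher genes were called without air week 1 replicate 2 or 4 or air week 3 replicate 1 or 3, and 3 or 4 lower genes without air week 1 replicate 4 or air week 3 replicate 3. Without the library that stood apart, which enters only through the shared estimate of the spread, 14 were higher and 15 lower. Soltu.DM.10G006290 fell to 11.3, 15.4, 13.4 and 15.5 CPM after 3 weeks, against 30.1, 49.1, 63.9 and 62.6 CPM after 1 week (log2 fold change -1.93 ± 0.38, edgeR adjusted p = 0.000509), and the libraries did not overlap. Soltu.DM.08G026500 had 33.2, 5.52, 18.2 and 17.7 CPM after 3 weeks, against 8.27, 5.42, 4.12 and 5.26 CPM after 1 week, a 3.15-fold difference whose call ended in 5 of the 8 fits that left out 1 library.

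No flesh library entered the choice of the genes, and 188 of the 200 genes passed the filter on low counts in flesh; the other 12 were not tested there. Most of them fell in control flesh as well. At week 18 against week 0, 130 were lower and 2 higher, where 18.5% and 17.4% of the 21718 flesh genes tested were called, and the median log2 fold change was -2.03. Soltu.DM.05G022700 was listed at 0 in all 4 control libraries of week 18, against 60.3, 62.3, 82.3 and 81.1 CPM at week 0, which makes it at least 142-fold lower. Soltu.DM.05G022670 was likewise listed at 0 at week 18, against 17.6, 12.3, 21.7 and 14.2 CPM at week 0, at least 35.6-fold lower. The 2 genes that rose in control flesh were Soltu.DM.01G000790, with 13.2, 12.1, 12.4 and 10.9 CPM at week 18, against 7.52, 6.12, 6.16 and 4.07 CPM at week 0, and Soltu.DM.05G023750, with 382, 476, 435 and 500 CPM at week 18, against 278, 265, 307 and 387 CPM at week 0. Their fold changes were 2.14 and 1.52 (edgeR adjusted p = 1e-05 and 6.18e-07).

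Under ethylene, fewer of the genes were called in flesh at weeks 3 to 12 than at week 15, and so were fewer of all flesh genes. At week 3, 4 genes were higher and 8 lower under ethylene, at 2.4% and 2.73% of all flesh genes, with a median of -0.25. At week 6, 8 were higher and 1 lower, at 3.46% and 2.96%, with a median of 0.39. In the fit across all flesh libraries these shares lie near the background. With only the groups compared 18 were lower at week 3, and 34 were higher and 7 lower at week 6. The shares of all flesh genes called with only the groups compared are not given, for these weeks or for week 9, so no excess is read from those counts. With each listed 0 set to the smallest count above 0 of its gene, 14 were higher at week 6. At week 9, 11 were higher and 0 lower, at 0.562% and 0.87%, with a median of 0.56; with only the groups compared 27 were higher. Week 12 had 24 higher genes and 0 lower ones, at 0.497% and 1.16%, with a median of 0.90. The calls at both weeks lie in 1 direction. At week 15 60.6% of the 188 were higher and 0 lower, at 15% and 12.4% of all genes, and the median was 1.61. DESeq2 called 0 genes lower at weeks 9, 12 and 15, and at an unadjusted p under 0.05 in edgeR's test there were 1, 0 and 0. With each listed 0 set to the smallest count above 0 of its gene, 61 genes were higher at week 12, 61.5% of the 200 genes were higher at week 15, and the median of week 15 was 1.18. Whether the effect differed between the tissues at a given week was not tested.

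The week 3 to week 12 counts in flesh depend on single libraries. At week 3, 0 higher genes were called without control replicate 1 or 2 or ethylene replicate 1, 2 or 4, 2 without ethylene replicate 3, and 5 lower genes without control replicate 4 or ethylene replicate 1, and the median was 0.01 without control replicate 4. At that week Soltu.DM.08G003250 had 4.33, 3.43, 2.96 and 4.27 CPM in ethylene flesh, against 5.45, 5.94 and 7.5 CPM in control replicates 1 to 3 and 30.9 CPM in control replicate 4. At week 6 the count of higher genes was 1 to 5 without control replicate 1, 2 or 3 or ethylene replicate 1, 2 or 4, at week 9 it was 7 without control replicate 2, and at week 12 it was 13 to 15 without control replicate 1 or 2 or ethylene replicate 1. At week 9 Soltu.DM.01G000790 had 56.5, 52.1, 28.7 and 42.2 CPM in ethylene flesh, against 7.91, 11.3, 10.6 and 10.6 CPM in control flesh, a 4.29-fold difference (edgeR adjusted p = 1.67e-11) called in all 8 fits that left out 1 library. At week 12 Soltu.DM.02G007590 had 29.2, 14.3, 16.8 and 18.5 CPM in ethylene flesh, against 1.77, 3.19, 3.8 and 2.07 CPM in control flesh, a 6.88-fold difference (edgeR adjusted p = 0.000265). In both genes the arms did not overlap. The 1 lower gene of week 6, Soltu.DM.06G010530, had 91.5, 100.7, 114.4 and 121.3 CPM in ethylene flesh, against 192.3, 175.8, 175.0 and 134.7 CPM in control flesh (log2 fold change -0.62 ± 0.13, edgeR adjusted p = 0.00055).

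At week 15 Soltu.DM.05G022700 had 11, 13.4, 7.72 and 10.7 CPM in ethylene flesh, against 1.31, 0.612, 0.699 and 0.514 CPM in control flesh, a 14.2-fold difference (edgeR adjusted p = 7.35e-13). Soltu.DM.02G030170 had the largest fitted change among genes with at least 5 CPM in the higher group, with 0, 4.8, 12.5 and 4.11 CPM in ethylene flesh, against 0, 0.515, 0 and 0 CPM in control flesh, and libraries of both arms listed at 0. The genes that fell in control flesh and were higher under ethylene in flesh at week 15 numbered 89. They are 68.5% of those that fell and 78.1% of those that were higher. Of the 188 genes tested in flesh, 60.6% were higher under ethylene at week 15 and 69.1% fell in control flesh. The 68.5% lies above the 60.6% and the 78.1% above the 69.1%, and a link between the lists was not tested. The genes higher in bud at week 12 and in flesh at week 15 numbered 58, which is 55.8% and 50.9% of the lists. Of all 200 genes, 57% were higher in flesh at week 15 and 52% in bud at week 12. The overlap lies near these shares, so no link is read from it. Higher at bud weeks 6, 9 and 12 and at flesh week 15 were 39 genes, for which no share of all genes was computed.

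In flesh returned to air, 42 genes were higher and 0 lower than control at week 16, where 6.81% and 5.61% of all genes were called, with a median of 0.59. At week 18, 13 were higher and 0 lower, at 0.663% and 0.267%, with a median of 0.34. DESeq2 called 33 higher at week 16 and 27 at week 18, and 0 lower at both weeks, and at an unadjusted p under 0.05 in edgeR's test 2 and 4 were lower. The week 16 count was 27 without air replicate 4, and the week 18 count was 5 without air replicate 1, 8 without control replicate 3 and 0 in a fit of the 8 libraries alone. Soltu.DM.01G039930 had 8.08, 10.3, 12.3 and 13.7 CPM in flesh after 1 week in air, against 2.36, 2.18, 1.97 and 4.92 CPM in control flesh, a 3.84-fold difference (edgeR adjusted p = 0.000393). After 3 weeks in air it had 6.24, 5.01, 2.24 and 8.11 CPM, against 2.02, 1.74, 1.11 and 1.71 CPM in control flesh, without overlap, and the call ended in 6 of the 8 fits that left out 1 library.

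Bud and flesh were compared in the control libraries of week 9, which the choice did not use. The choice asked for a level in bud at week 0 and set no condition on flesh. An excess of genes higher in bud may thus follow in part from the choice. Of 179 genes tested, 67.6% were higher in bud and 7.82% lower, where 31.8% and 27.2% of the 19509 genes tested were called, and the median log2 fold change was 1.58. Soltu.DM.01G038290 had 24.6, 27.4, 26.7 and 29.9 CPM in bud and was listed at 0 in all 4 flesh libraries, at least 87.6-fold higher. Soltu.DM.05G007480 had 11, 8.44, 11.9 and 11.5 CPM in bud and was likewise listed at 0 in flesh, at least 31.4-fold higher. The other way, Soltu.DM.05G023750 had 57.4, 74.7, 63.5 and 68.6 CPM in bud, against 246, 254, 254 and 244 CPM in flesh (log2 fold change -1.82 ± 0.07, edgeR adjusted p = 1.14e-08). The genes higher in bud and higher under ethylene in flesh at week 15 numbered 73, which is 60.3% and 64% of the lists. Of all 188 genes tested in flesh, 60.6% were higher under ethylene at week 15. The 60.3% lies near that share, so no link is read from the overlap.

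By ID the genes are in part neighbours. IDs no more than 20 apart form 15 runs with 38 of the genes, and IDs in this naming carry the number of the chromosome. The longest run is 5 genes between Soltu.DM.03G011440 and Soltu.DM.03G011490, whose log2 fold changes under ethylene lay between -2.17 and -1.99 in bud at week 3, between 2.32 and 2.60 in bud at week 6, between 1.03 and 1.30 in bud at week 12 and between 3.03 and 4.54 in flesh at week 15. By edgeR all 5 passed the threshold at bud week 6, 4 passed it at bud week 3 and in flesh at week 15, where Soltu.DM.03G011460 did not (adjusted p = 0.0858 and 0.0939), and at bud week 12 the adjusted p was 0.287 to 0.356. The sources used here do not give how reads of near-identical copies were counted, so neighbours of this kind may share reads and are uncertain as separate genes. Chromosome 3 carries 32 of the genes, 16% of the set, against 9.72% of all genes in the table, and chromosome 11 carries 7, 3.5%, against 6.77%. At the level of transcripts 166 of the genes have counts for 1 transcript only in buds of weeks 6 to 12. Of the 34 others, the share of the main transcript differed by more than 20 percentage points between ethylene and control buds in 3.

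Genes with the same fall and a smaller week 15 difference are given for comparison. Of the 200 genes, 79% were higher under ethylene in bud at week 6 and 29.5% lower at week 3. Of the 219 genes that met both conditions and ranked after them the shares were 49.3% and 17.4%, and of the 498 that fell with a week 15 difference under 0.8 they were 22.9% and 9.04%. In flesh at week 15 57% of the 200, 42.9% of the 219 and 22.3% of the 498 were higher under ethylene. The order of the 3 lists was not the same at all weeks. In bud the shares higher were 71.5%, 44.75% and 24.9% at week 9, but 52%, 54.3% and 35.3% at week 12. In flesh they were 5.5%, 7.31% and 2.81% at week 9, and 12%, 6.39% and 1.61% at week 12. No test of these differences between lists was run.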

How the data were processed

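Total RNA was extracted with a Qiagen RNeasy Plant Mini Kit, per the labels' protocols. Trimmomatic, HISAT2, SAMtools and StringTie are listed in the submitters' processing notes. Tool versions and roles, genome build, annotation and the handling of strand were not given in these sources. The authors deposited whole-number counts per gene and per transcript, without normalization. A row of the gene table that names no gene held 1.76% to 2.95% of the counts and was left out, as was a transcript row with 89 blank cells. No libraries were identical. Numbers after D in the sample titles were read as weeks of storage.

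CPM was computed from the deposited counts with library totals. The test was that of edgeR 4.0.16 in R 4.3.3, with TMM scaling, filterByExpr (minimum count 10, minimum total 15), 1 quasi-likelihood fit of the 68 libraries per tissue (51 residual degrees of freedom; bud against flesh on 8 libraries), and Benjamini-Hochberg adjustment over all genes, threshold 0.05. Standard errors were derived from the F statistic. The steps were tested on simulated data. DESeq2 1.42.0, other scalings, no filter, only the groups compared, a replicate block, other member rules and each library left out were alternatives; the 3 comparisons of week 6 with week 3, the scaling by library totals and the setting of listed 0 values were added after seeing the data. Replicate numbers were not used as pairs.

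The members and lists were chosen with earlier results of these data known. Named genes are, per comparison, at most 2 higher and 2 lower members with the largest change among those past the threshold with at least 5 CPM in the higher group, besides the 2 members at each end of the week 15 ranking, the next in rank, the 2 with the most counts at week 0, the 2 called in most weeks of bud and flesh, and the 2 at each end of the change in air. Intervals of counts were not computed, and standard errors cover the spread between libraries.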

Additional observations from a re-analysis of the deposited data

Results flagged for a closer look

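Within groups of 4 libraries, the library farthest from the others was compared with the critical value of Dixon's test, over the 34 groups for the median of the 200 genes and over the compared groups of each named gene; chance alone flags about 1 in 20 groups. The median level of the 200 genes stood out in replicate 4 of the control flesh of week 3, at 0.0679 log2 units relative to week 0. The same library held 30.9 CPM of Soltu.DM.08G003250. Replicate 4 of the control buds of week 3 stood out with 121.1 CPM of Soltu.DM.03G020780, 4.48 CPM of Soltu.DM.02G027740 and 0.938 CPM of Soltu.DM.10G010160, and replicate 3 of that group was listed at 0 for Soltu.DM.09G001290. In control buds of week 6 replicate 4 had 23.2 CPM of Soltu.DM.03G020780 and replicate 1 was listed at 0 for Soltu.DM.12G002190. Replicate 1 of the buds after 2 weeks in air had 17 CPM of Soltu.DM.01G000860. In control flesh of week 16 replicate 4 had 1.32 CPM of Soltu.DM.03G020780 and 4.92 CPM of Soltu.DM.01G039930, and in control flesh of week 15 replicate 2 had 0.515 CPM of Soltu.DM.02G030170.

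The effect of ethylene in bud differed between weeks in the test of the difference itself. The effect was larger at week 12 than at week 3 for 143 genes, where 3.3% of all genes were called. It was larger at week 6 than at week 3 for 150 genes, where 5.11% of all genes were called. Without replicate 4 of the week 3 control buds the week 12 count was 75.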

How the results depend on the processing

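Shares are percent of the 200 genes, and the cause of a change was not tested. The shares of all genes called under these settings are not given. With the 8 libraries compared alone, bud shares were 3.5% higher at week 3, 0.5% lower at week 6, 5.5% lower in the ethylene arm at week 6 against week 3, 5.5% higher in control buds at week 12 against week 3, 7.5% higher and 19.5% lower from week 1 to week 3 in air, and 67%, 0% and 54.5% higher in air at weeks 16, 17 and 18. In flesh that setting gave 9% lower at week 3, 17% higher and 3.5% lower at week 6, 13.5% higher at week 9, a median of 1.40 at week 15 and 0% higher at week 18; it was not run for bud against flesh, which had only those libraries. With listed 0 values set, flesh had 1% higher and 8.5% lower at week 3, 7% higher and 1% lower at week 6, 30.5% higher with a median of 0.79 at week 12, 0.5% lower with a median of 1.18 at week 15, a median of -1.56 in control flesh, and medians of 0.32 and 0.22 in air at weeks 16 and 18. With library totals 2.5% were lower from week 1 to week 3 in air, and 2.5% were higher in flesh at week 6; this scaling moved the median of all genes in bud by -0.12 at week 6, -0.16 at week 17 and -0.11 for the difference of the week 6 and week 3 effects. DESeq2 called 13.5% higher in flesh at week 18. Among the 100 genes with the largest week 15 difference, 0% were higher in bud at week 3, 5% in control buds at week 12 and 1% in flesh at week 3, while 0% were lower in flesh at week 6 and 3% in bud against flesh.

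The replicate block gave 6.5% lower from week 1 to week 3 in air, 51% higher in bud at week 18 and 1% lower in flesh at week 6, and stayed within 1.5 times for the other counts. The replicate numbers were not taken as pairs, because 0 of 21 comparisons had a correlation over 0.1 in all 4 pairs. This strict criterion cannot show that pairing is absent. The mean correlation was 0.0416 with the same number and -0.0136 with other numbers. In 34 of 84 cases a library correlated best with its own number. Whether libraries of the same number share a source cannot be told.

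Leaving out 1 library gave ranges in bud of 0% to 1.5% higher and 2.5% to 39.5% lower at week 3, and of 38.5% to 79.5% higher at week 9. For the larger effect at week 12 than at week 3 it gave 37.5% to 82%, with medians of 1.66 to 2.39. In control buds it gave 2% to 21% higher at week 12 against week 3, with medians of -0.041 to 0.64, the median of -0.041 without week 12 replicate 4 and -0.02 without week 3 replicate 2. At week 6 against week 3 it gave 9% to 23.5% higher and 11% to 33.5% lower, with medians of -0.45 to 0.28, of 0.05 without week 6 replicate 1 or 2 and of 0.28 without week 3 replicate 4. The ethylene arm at week 6 against week 3 had 1% to 3.5% lower. In air the ranges were 14% to 43% higher at week 16, 16.5% to 41.5% at week 18, and 1% to 7% higher and 1.5% to 7.5% lower from week 1 to week 3. In flesh they were 0% to 1.5% higher and 2.5% to 5.5% lower at week 3 with medians of -0.32 to 0.013, 0.5% to 4.5% higher at week 6 with medians of 0.22 to 0.47, 3.5% to 6.5% higher at week 9, 6.5% to 13% at week 12 with medians of 0.78 to 0.96, 0% to 0.5% lower at week 15, 13.5% to 21% higher with medians of 0.38 to 0.62 in air at week 16, and 2.5% to 8.5% with medians of 0.19 to 0.38 at week 18. Values listed as 0 limit what flesh can show, with 2.51% of the values of the 200 genes listed at 0 in bud and 23.8% in flesh.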

Other observations

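By the median level of the 200 genes, the library numbered 4 was the highest of its group in 12 of 17 bud groups and 10 of 17 flesh groups, and the library numbered 1 the lowest in 11 of 17 bud groups and 7 of 17 flesh groups. The labels do not say what the numbers stand for.

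Of the 15 runs of neighbours by ID, 12 had a negative log2 fold change under ethylene at bud week 3 in all their genes and 2 a positive one. The run of Soltu.DM.07G019070 and Soltu.DM.07G019090 had 0.69 in both genes at week 3, 1.07 to 1.16 at week 6 and 1.02 to 1.23 at week 12. That of Soltu.DM.09G001290 and Soltu.DM.09G001300 had 0.43 to 0.58, 0.49 to 0.60 and 1.10 to 1.23 at these weeks. The runs were singled out after their values were seen, and no test of their difference from the other genes was run.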
